A study of Bos taurus with 8 samples.

Results

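Mitosis is the step at which a cell with copied chromosomes parts them between its daughters. The genes described here encode its machinery, which comprises cyclins and the kinase CDK1 that start mitosis, polo and Aurora kinases, the kinetochore that ties chromosomes to microtubules, motors that build the spindle, condensin that compacts chromosomes, and the ubiquitin enzymes that end mitosis by destroying cyclin B and securin. Most of these transcripts are made late in the cell cycle and are scarce in resting cells, so in a tissue extract their level is commonly read as a sign of dividing cells. The lung of a newborn calf is still growing, with dividing fibroblasts, endothelium and epithelium. In an extract of whole tissue, fewer cells of a type and less RNA per cell cannot be told apart.

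The list of mitosis and spindle genes has 57 symbols, chosen by name with earlier results of these data known. Probes on the array were given symbols through their RefSeq accessions, and 43 of the 57 were matched. The other 14, among them TOP2A, MKI67, FOXM1, CENPA, CENPE, CENPF, NDC80 and TTK, obtained no probe by that match and were not analysed here. Each of the 43 had a probe called well above background in 4 or more of the 8 animals, counted over both groups, and so was kept. They are 43 of 9866 genes with a symbol that were kept. For 40 of them the brightest probe was well above background on all 8 arrays. The exceptions were CDCA8, seen on 7 arrays, CDCA5, seen on 6, and KIF11, seen on 5.

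The lungs came from Holstein calves labelled 4 days old, 4 cloned and 4 naturally conceived. The cloned animals had died of respiratory failure and the naturally conceived animals, called normal here, were healthy and were killed, so cloning, disease and mode of death cannot be told apart. The clones had died within those 4 days, and the sources used here do not give the day or the donor cells of each. RNA of each animal was hybridised to 1 array with 1 dye, and all clones lay on 1 slide and all normal animals on another, so slide and group cannot be told apart. Levels are log2 intensity relative to the 75th percentile of the probes of the same array, so 0 is that percentile, and they can be compared between animals for a gene but not between genes. Alveolar type II cell markers were present as the tissue label requires, with 7 of 8 genes measured and all 7 well above background on every array. Of 4 Y-linked genes, DDX3Y, USP9Y and EIF1AY were not kept. ZFY was kept, with a clone mean 0.09 above the normal mean (log2). Without the filter on background all 4 had a higher mean in clones, with a median difference of 2.89. Whether the groups differed in sex was not tested.

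In 3 of the 4 clones mitosis and spindle genes stood above every normal animal almost without exception, and in clone 3 they did not. Clone 1 was above all 4 normal animals for 42 of the 43 genes, clone 4 for 41 and clone 2 for 40, while clone 3 was above them for 8, below all of them for 13 and within their range for 22. Over all kept genes the share above every normal animal was much alike in the clones, at 40.0%, 34.0%, 39.2% and 36.8% in clones 1 to 4. The median gene of the list was 3.61 above the mean of the normal animals in clone 1, which is 12.2-fold, 1.99 or 3.96-fold in clone 4, 1.35 or 2.56-fold in clone 2 and 0.11 or 1.08-fold in clone 3. The same median over all kept genes lay between -0.03 and 0.02 in the clones. Values by animal are not given for other ways of processing. The median difference of the list between clone and normal means, 1.70 here, was 0.74 with normexp background correction and 75th percentile centring. With arrays centred on the spike-in controls it was 1.03.

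**Figure D1:**
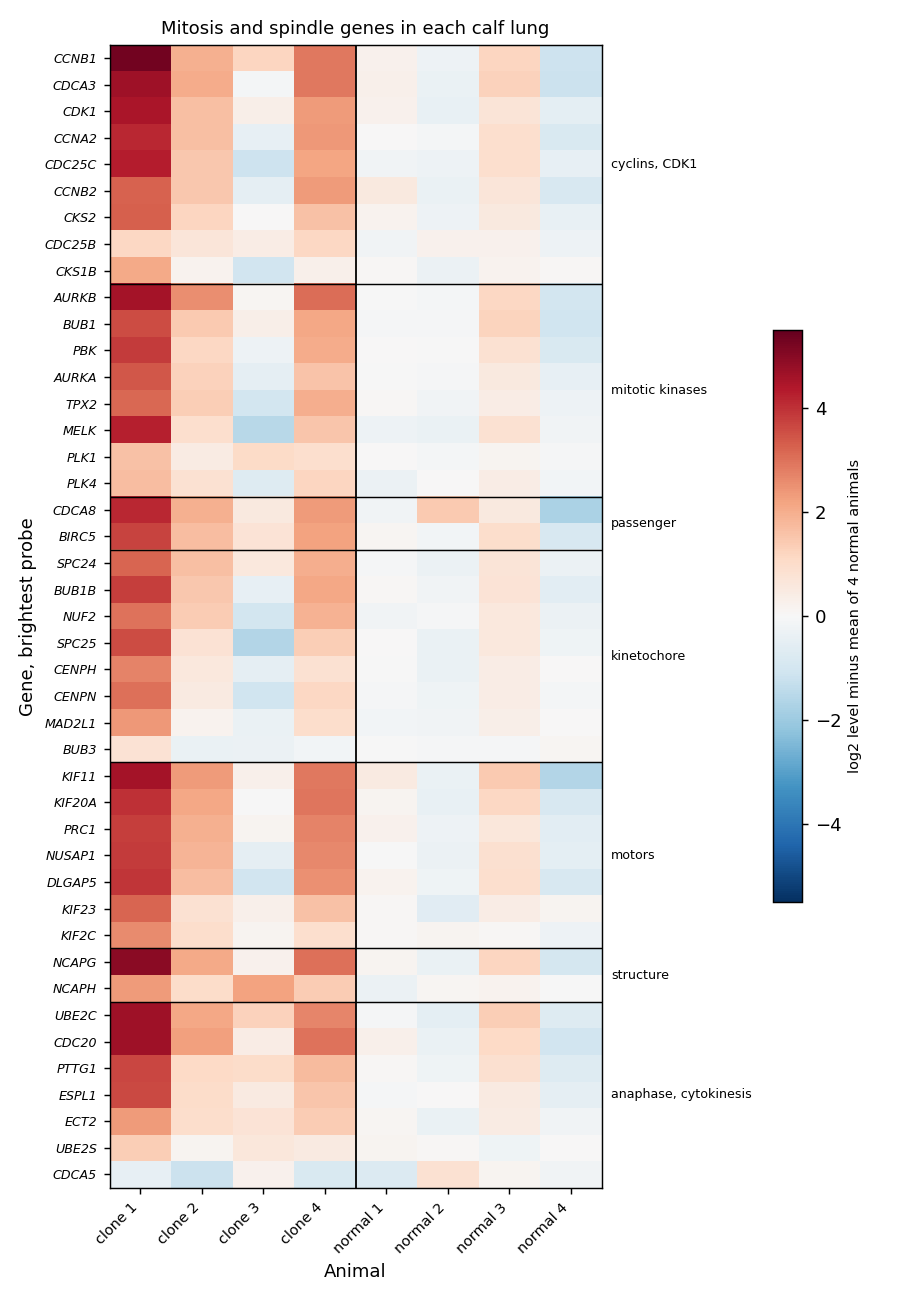
Level of each of the 43 mitosis and spindle genes (rows, grouped by role) in each animal (columns), as the log2 level minus the mean of the 4 normal animals, from blue (lower) to red (higher). Clone 1 is red in nearly every row, clones 4 and 2 are paler red, and clone 3 is mixed, above every normal animal in 8 rows such as NCAPH and PLK1, below all of them in 13 and within their range in 22.

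The order of the clones was nearly the same from gene to gene, and that of the normal animals less so. Among clones, 36 of 43 genes, or 83.7%, ran from clone 1 through clone 4 and clone 2 down to clone 3, an order held by 11.8% of all kept genes. Clone 1 was the highest of all 8 animals in 41 genes, or 95.3%, against 26.4% of all genes. The healthy animals also had an order, from normal animal 3 through 1 and 2 down to 4, in 24 genes or 55.8%, against 2.21% of all genes. Normal animal 3 was the highest of its group in 38 of 43 genes, against 25.2% of all genes, with a median 0.84 above the other normal animals. Normal animal 4 was the lowest of its group in 29, against 17.3% of all genes, with a median 0.60 below the other normal animals (-0.60). These genes thus differed among healthy calves as well, and the median SD over 4 animals was 0.57 for the list against 0.16 for all genes. In clones it was 1.53 for the list and 0.53 for all genes, and 42 of the 43 genes varied more among clones than among normal animals, as did 91.1% of all genes.

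**Figure D2:**
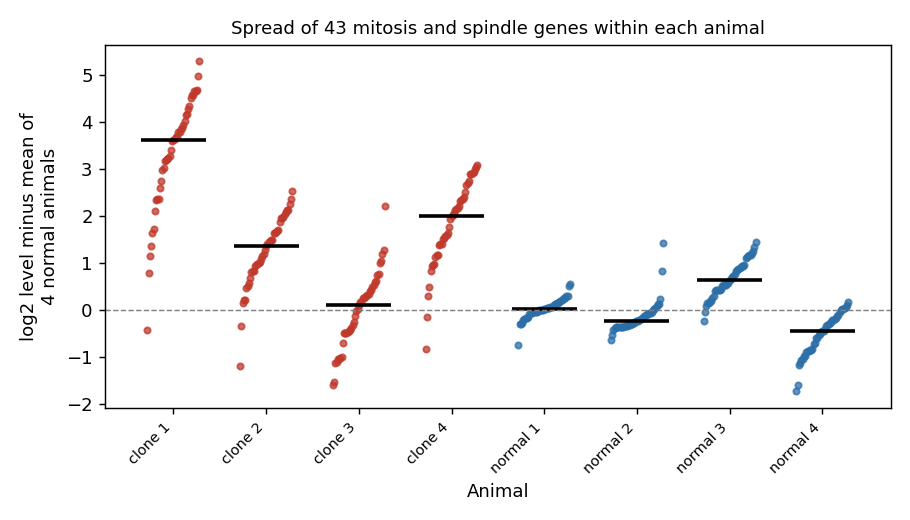
Each point is 1 of the 43 genes, as the log2 level in that animal minus the mean of the 4 normal animals, sorted within the animal, and the black bar is the median. The medians of clones 1 to 4 are 3.61, 1.35, 0.11 and 1.99, and those of normal animals 1 to 4 are 0.03, -0.23, 0.63 and -0.45.

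Compared as groups, 41 of 43 genes had a higher mean in clones, with a median log2 difference of 1.70, and 34 differed by over 1, that is, by over 2-fold. Over all kept genes 48.4% had a higher mean in clones, the median difference was -0.02, and 3.44% were higher by over 1. No gene of the list passed the test between the groups. By limma with Benjamini-Hochberg adjustment over 35635 probes, 0 of 43 reached an adjusted p under 0.05 and the adjusted p ran from 0.0906 to 0.989, where 0.177% of all probes and 0.182% of all genes passed, 0.0405% of genes as higher. At an unadjusted p under 0.05, 25 of the 43, or 58.1%, were higher in clones and 0 were lower, against 6.38% and 6.58% of all genes. Every clone exceeded every normal animal in 8 genes, or 18.6%, against 5.09% of all genes, namely CCNB1, CDC25B, PLK1, NCAPH, KIF2C, PTTG1, ECT2 and UBE2S. Without clone 3 this count was 40 of 43, or 93.0%, against 11.2% of all genes, and without normal animal 3 it was 18, or 41.9%, against 6.74%. Without clone 1 the count was 8, or 18.6%, against 13.4% of all genes, a smaller gap to the share over all genes. With arrays centred on the spike-in controls it was 1, against 0.223%, and with normexp background correction and 75th percentile centring it was 5, against 3.95%.

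**Figure D3:**
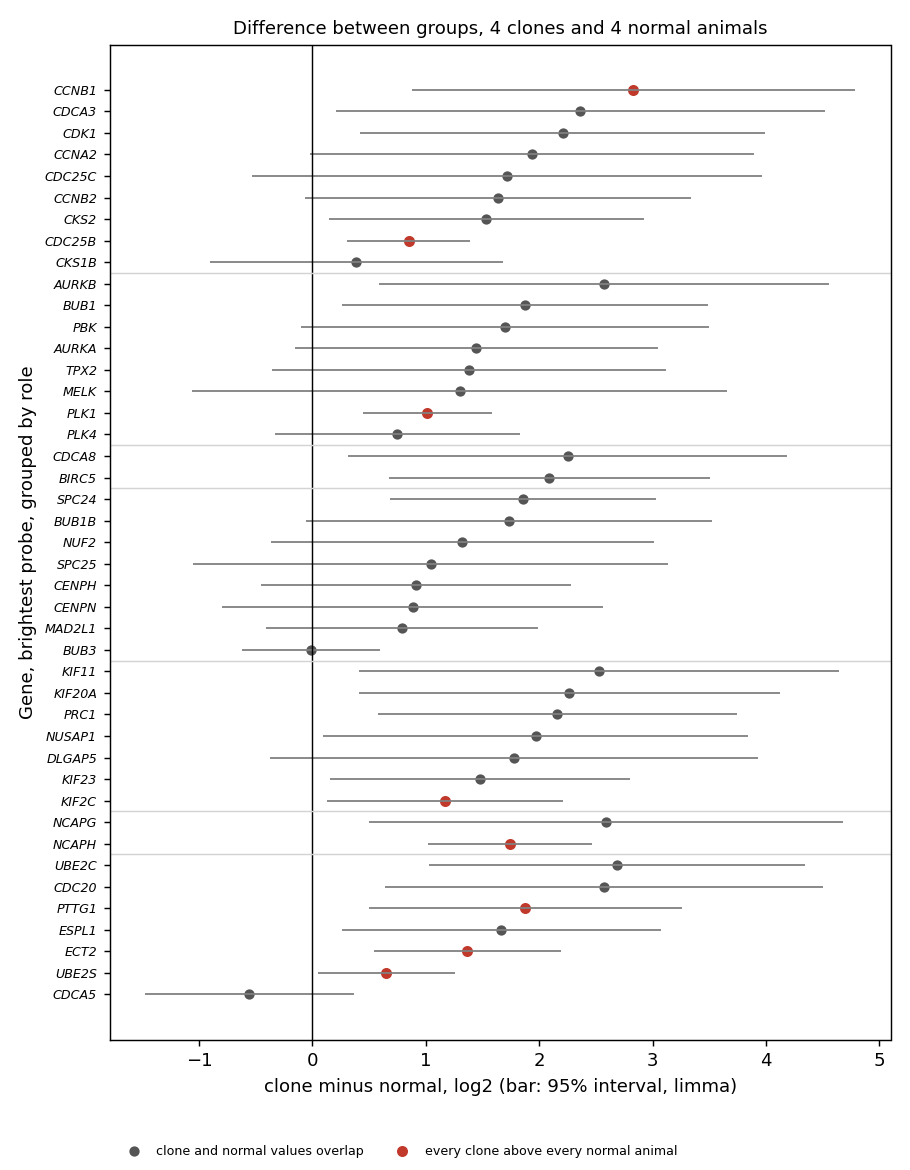
Mean of 4 clones minus mean of 4 normal animals (log2) for each gene with its 95% interval from limma, grouped by role. Points lie right of 0 for 41 of 43 genes, and red marks the 8 genes in which every clone was above every normal animal.

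The group difference depended on which clones were counted. Without clone 1 the median of the list was 1.04, and NCAPH and PLK1 passed the test, with differences of 1.54 and 0.81 (limma adjusted p = 0.0311 and 0.0426, where leaving out clone 1 let 3.75% of all genes pass as higher). Without clone 3 the median was 2.24 and PRC1, a protein that bundles microtubules between the parting chromosomes, passed at 2.83 (limma adjusted p = 0.0472, with 0.507% of all genes passing as higher). With arrays weighted by their fit to the group means, clones 1 and 3 had weights of 0.12 and 0.0978, while the other 6 arrays had weights from 1.66 to 4.13, and 35 of the 43 genes passed as higher, against 15.6% of all genes. Single values moved as well, and 29 of the 43 differences moved by over 1.5 times with normexp and 75th percentile centring, 31 with spike-in centring, 22 without clone 1 and 11 without clone 3. Over all alternatives the adjusted p ran from 0.00328 to 0.619 for NCAPH, from 0.00986 to 0.619 for PLK1 and from 0.00426 to 0.657 for PRC1.

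Cyclins and CDK1 drive entry into mitosis. CCNB1 had the largest difference of the 43 genes here and under 15 of 20 alternatives, some of which leave every difference unchanged. It was not the largest with either normexp setting, with array weights, without clone 1 or without clone 3. There CDCA3, UBE2C or AURKB exceeded it. CCNB1 encodes cyclin B1, the partner of CDK1. In the order of animals 1 to 4, its level was 0.68, -2.66, -3.42 and -1.73 among the clones and -4.38, -4.90, -3.44 and -5.74 among the normal animals, and all sets of 4 levels that follow keep this order. Every clone was above every normal animal, but clone 3 was above normal animal 3 by only a small margin. The mean was -1.78 ± 1.78 in clones and -4.62 ± 0.96 in normal animals (SD, n = 4 each), a log2 difference of 2.83 with a 95% interval from 0.88 to 4.79 (7.12-fold, limma adjusted p = 0.222). The difference was 1.04 with normexp and 75th percentile centring and 1.56 with normexp and quantile normalization. CCNB2, the second B-type cyclin, stood at 0.08, -1.68, -3.65 and -0.83 in the clones and at -2.60, -3.52, -2.49 and -4.02 in the normal animals. Its groups overlapped through clone 3, and the difference was 1.64 with an interval from -0.07 to 3.34 (limma adjusted p = 0.401), and 0.79 with normexp and 75th percentile centring. CDK1 itself differed by 2.21, the S-phase and mitotic cyclin CCNA2 by 1.93, and CDCA3, which helps destroy the mitosis inhibitor WEE1, by 2.36.

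The 9 measured genes of this role all had a positive difference, from 0.39 to 2.83 with a median of 1.72. Of the 9, 5 had a limma unadjusted p under 0.05, against 6.38% of all genes as higher. Both phosphatase genes CDC25B and CDC25C activate CDK1. CDC25B lay at 2.14, 1.66, 1.41 and 2.15 in the clones and at 0.82, 1.22, 1.23 and 0.69 in the normal animals. Its groups did not overlap and its spread was narrow, with SDs of 0.37 and 0.28, so that a difference of 0.85 (95% interval 0.31 to 1.39, limma adjusted p = 0.200) had a smaller unadjusted p than that of CCNB1. With spike-in centring it was 0.17. CDC25C ran from -6.20 in clone 3 to -0.74 in clone 1, with a difference of 1.72 (interval -0.53 to 3.97) that was 0.27 with normexp and 75th percentile centring and 0.84 without clone 1.

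CKS1B and CKS2 encode the small paired subunits that bind cyclin-dependent kinases, and in both the clones ran in the common order. The difference between the 2 genes was not tested. CKS2 measured 1.90, -0.18, -1.36 and 0.25 in the clones and -1.20, -1.68, -0.85 and -1.79 in the normal animals, a difference of 1.53 (95% interval 0.15 to 2.92, limma adjusted p = 0.331) that was 0.95 without clone 1. CKS1B measured 2.00, 0.11, -1.15 and 0.20 in the clones and -0.02, -0.42, 0.08 and -0.04 in the normal animals. Its clones lay on either side of the normal animals, and its difference of 0.39 (interval -0.90 to 1.68) was -0.18 without clone 1 and -0.29 with arrays centred on the spike-in controls.

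Among the mitotic kinases and their activators all 8 measured genes had a positive difference, with a median of 1.41. PLK1, the polo-like kinase of mitotic entry and spindle assembly, measured 2.68, 1.51, 2.09 and 2.00 in the clones and 1.06, 0.96, 1.20 and 1.00 in the normal animals. All clones were above all normal animals, and clone 3 was here the second highest. The mean was 2.07 ± 0.48 against 1.05 ± 0.11 (SD, n = 4 each), a difference of 1.02 with an interval from 0.45 to 1.58 (limma adjusted p = 0.167) that was 0.34 with spike-in centring. PLK4, the polo-like kinase that starts centriole copying, had a difference of 0.75 (0.43 without clone 1), and clone 3 was the lowest of the 8 animals at -3.68.

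The Aurora kinases had a common order of animals with different sizes. AURKB, the catalytic subunit of the chromosomal passenger complex, measured -0.23, -2.27, -4.69 and -1.73 in the clones and -4.84, -4.93, -3.65 and -5.79 in the normal animals. Clone 3 lay inside the normal range, and the difference was 2.57 (95% interval 0.59 to 4.56, limma adjusted p = 0.256), or 0.84 with normexp and 75th percentile centring. AURKA, which matures centrosomes, measured 0.21, -1.92, -3.68 and -1.63 in the clones and -3.21, -3.28, -2.66 and -3.64 in the normal animals. Clone 3 was the lowest animal of all, at almost the level of normal animal 4, and the difference was 1.45 (interval -0.15 to 3.04, limma adjusted p = 0.431), or 0.79 without clone 1. TPX2, the activator of AURKA on spindle microtubules, differed by 1.38 and the checkpoint kinase BUB1 by 1.88. With normexp and 75th percentile centring TPX2 differed by 1.21 and BUB1 by 0.21. The interval of TPX2 ran from -0.36 to 3.12, and clone 3 was the lowest of the 8 animals at -2.15. The kinases PBK and MELK of dividing cells differed by 1.70 and 1.30, and by 0.98 and 0.31 without clone 1.

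BIRC5 encodes survivin, which with CDCA8 (borealin) anchors AURKB at the centromere. BIRC5 measured -0.70, -2.71, -3.64 and -2.18 in the clones and -4.30, -4.57, -3.45 and -5.28 in the normal animals. Only clone 3 and normal animal 3 crossed, and the mean of -2.31 ± 1.23 against -4.40 ± 0.76 (SD, n = 4 each) gave a difference of 2.09 with an interval from 0.68 to 3.50 (4.26-fold, limma adjusted p = 0.215). CDCA8 differed by 2.25, with 3 of 4 normal animals above background. With normexp and 75th percentile centring BIRC5 differed by 0.60 and CDCA8 by 0.23.

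Genes of the checkpoint, kinetochore and centromere had the lowest median of the larger roles, 0.98 over 8 measured genes, of which 7 had a positive difference. SPC24, a subunit of the NDC80 complex that grips microtubules, measured 3.41, 1.84, 0.79 and 2.19 in the clones and 0.14, -0.12, 0.92 and -0.14 in the normal animals. Only clone 3 was within the normal range, and the difference was 1.86 (95% interval 0.68 to 3.03, limma adjusted p = 0.197). Its partners in that complex, NUF2 and SPC25, differed by 1.32 and 1.04, with clone 3 below every normal animal in both. The centromere genes CENPH and CENPN differed by 0.91 and 0.88, the checkpoint kinase gene BUB1B by 1.73 and its partner MAD2L1 by 0.79. Without clone 1 the median of this role was 0.28, with NUF2 at 0.77, SPC25 at 0.19, CENPH at 0.30, CENPN at 0.17 and MAD2L1 at 0.27. With normexp and 75th percentile centring SPC25 was 0.0124 and CENPH turned to -0.17.

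BUB3, a checkpoint protein that carries BUB1 and BUB1B to kinetochores, was an exception to the pattern. It measured 3.18, 2.06, 2.07 and 2.24 in the clones and 2.40, 2.36, 2.36 and 2.50 in the normal animals. Clone 1 was above every normal animal and the other 3 clones were below them all, and the difference was -0.01 (95% interval -0.62 to 0.59, limma adjusted p = 0.989). Its sign turned under 6 alternatives, to values between 0.0158 and 0.11.

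**Figure D4:**
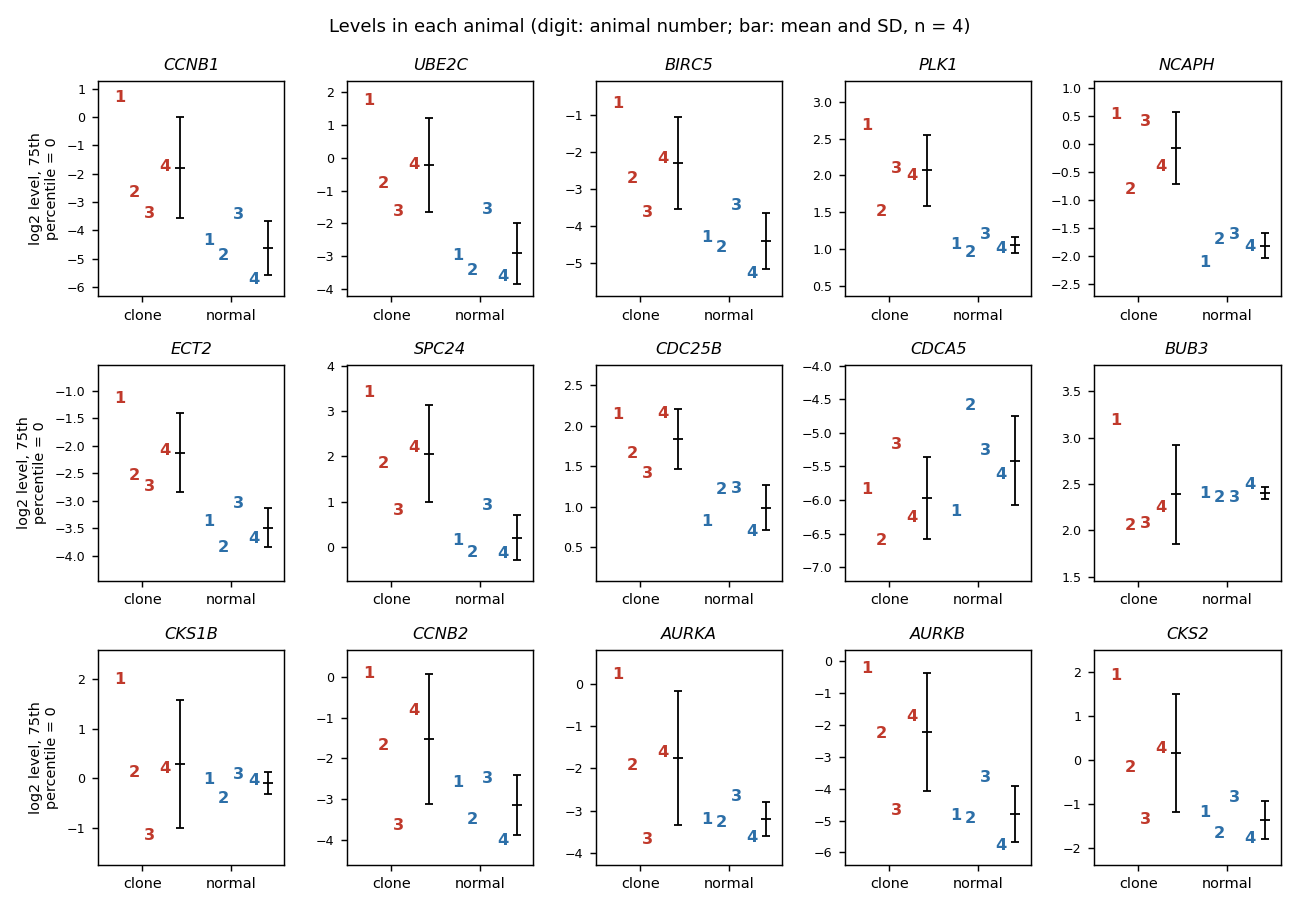
Log2 level in each animal for 15 genes, relative to the array's 75th percentile (each panel has its own axis). Digits are animal numbers, red for clones and blue for normal animals, and the bar is the mean with its SD (n = 4). Clone 1 is the highest animal in 13 of the panels, and clone 3 is near or below the normal animals in AURKA, AURKB, CCNB2 and CKS1B but above them in PLK1, NCAPH and CDC25B.

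Motors and other microtubule-binding genes had a median difference of 1.97 over 7 measured genes, all positive. The largest was that of KIF11, the motor that pushes spindle poles apart, at 2.53, although its probe was well above background in only 3 clones and 2 normal animals and the difference was 0.11 with normexp and 75th percentile centring. KIF20A and PRC1, which act in the central spindle, differed by 2.27 and 2.16, the midzone motor KIF23 by 1.48, and the microtubule-binding NUSAP1 and DLGAP5 by 1.97 and 1.78. The interval of DLGAP5 ran from -0.38 to 3.93, with clone 3 below every normal animal. DLGAP5 differed by 0.91 and 1.16 on its other kept probes, and by 0.66 with normexp and 75th percentile centring. KIF2C, a depolymerase that frees wrongly attached microtubules, had non-overlapping groups, from -0.82 to 1.62 in clones and from -1.25 to -0.85 in normal animals, with a difference of 1.17 (limma adjusted p = 0.323).

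The condensin genes NCAPG and NCAPH encode subunits of the same complex and had different orders of animals. NCAPG followed the common order, from 1.88 in clone 1 and -0.04 in clone 4 to -2.84 in clone 3, which lay inside the normal range of -4.07 to -1.92. NCAPH measured 0.53, -0.81, 0.40 and -0.40 in the clones and -2.12, -1.69, -1.61 and -1.82 in the normal animals, so that clone 3 stood next to clone 1 and all clones were well above the healthy group. It had the smallest p of the list, with a mean of -0.07 ± 0.64 against -1.81 ± 0.22 (SD, n = 4 each) and a difference of 1.74 (95% interval 1.02 to 2.46, 3.34-fold, limma adjusted p = 0.0906). All 3 of its kept probes had differences between 1.39 and 1.74. NCAPG differed by 2.59 (interval 0.50 to 4.68, limma adjusted p = 0.278), a larger gap with a wider spread.

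Genes of anaphase and cytokinesis had a median of 1.67 over 7 measured genes. UBE2C, the enzyme that primes substrates of the anaphase-promoting complex with ubiquitin, measured 1.74, -0.78, -1.63 and -0.21 in the clones and -2.99, -3.44, -1.58 and -3.63 in the normal animals. Clone 3 and normal animal 3 were level and the other clones were above all normal animals, with means of -0.22 ± 1.43 and -2.91 ± 0.93 (SD, n = 4 each) and a difference of 2.69 (95% interval 1.03 to 4.35, 6.45-fold, limma adjusted p = 0.190). CDC20, the activator of that complex, differed by 2.58. Its substrate PTTG1 (securin) differed by 1.88 and the protease ESPL1 (separase), which securin restrains, by 1.67. UBE2S, the enzyme that lengthens the ubiquitin chains UBE2C starts, differed by 0.65, and by -0.0229 with spike-in centring. Every clone was above every normal animal for UBE2S, but only just, at 2.18 in the lowest clone and 2.17 in the highest normal animal.

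ECT2, the exchange factor that places the cleavage furrow, measured -1.14, -2.54, -2.74 and -2.08 in the clones and -3.37, -3.85, -3.05 and -3.69 in the normal animals. The groups did not overlap, and the difference was 1.37 (95% interval 0.54 to 2.19, limma adjusted p = 0.186), or 0.31 with normexp and 75th percentile centring. CDCA5 (sororin), which protects sister chromatid cohesion, had the lowest difference of the list. It measured -5.85, -6.60, -5.17 and -6.26 in the clones and -6.17, -4.59, -5.27 and -5.63 in the normal animals, a difference of -0.55 (interval -1.47 to 0.36, limma adjusted p = 0.611). Its probe was above background in only 2 of 4 clones and its other probe, which was not kept, was above background on 1 array and had a difference of 1.09 with the opposite sign, so these values lie at the limit of detection. With arrays centred on the spike-in controls, CDCA5 passed as lower, by -1.23 (limma adjusted p = 0.0351, range over alternatives 0.0351 to 0.884), as did 27.3% of all genes, and NCAPH passed as higher, by 1.06 (limma adjusted p = 0.0422), as did 0.182% of all genes.

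Probes of a gene agreed in sign. Of the 43 genes, 27 had more than 1 kept probe, and in all 27 every kept probe had the same sign of difference. The widest range between probes of a gene was that of BUB1B, from 1.60 to 3.08.

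The remaining genes of the division cycle had smaller medians, and 0 of them passed the test over all probes by limma. Among 43 measured kinetochore and spindle genes outside the list, 36 had a positive difference, with a median of 0.50. At a limma unadjusted p under 0.05, 10 of these were higher, against 6.38% of all genes. With normexp and 75th percentile centring 22 were positive and 21 negative, with a median of 0.0178, and without clone 1 the median was 0.29 with 27 positive. The highest was PIMREG at 2.12 and the lowest the kinetochore gene MIS12 at -1.32. Their median was 1.88 above the normal mean in clone 1, 0.51 in clone 2, 0.78 in clone 4 and -0.49 in clone 3. Among 39 measured DNA replication genes, 31 had a positive difference, with a median of 0.31. Of the 39, 7 were higher at a limma unadjusted p under 0.05, against 6.38% of all genes. Without clone 1 the direction turned, with 15 positive, 24 negative and a median of -0.11. The genes ran from -0.71 for the origin recognition subunit ORC3 to 1.99 for the origin licensing factor CDC6. By animal, clones 1 to 4 had medians of 1.14, 0.23, -0.65 and 0.37, and normal animal 3 had 0.20. The lists were not tested against each other.

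**Figure D5:**
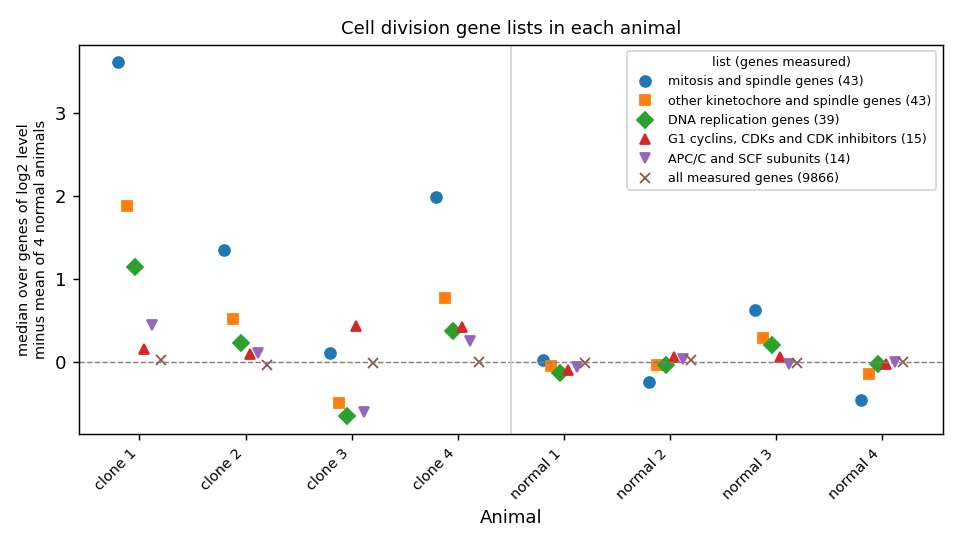
Median over the genes of a list of the log2 level minus the mean of the 4 normal animals, for each animal, with the number of measured genes in brackets. Mitosis and spindle genes reach 3.61 in clone 1, DNA replication genes 1.14 and G1 genes 0.16 (all with 75th percentile centring), and in clone 3 the replication genes are at -0.65 while mitosis and spindle genes are at 0.11.

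Regulators of the earlier phases went both ways. Of 15 measured G1 cyclins, their kinases and kinase inhibitors, 10 had a positive and 5 a negative difference, with a median of 0.30. At a limma unadjusted p under 0.05, 5 were higher and 1 lower, against 6.38% and 6.58% of all genes. They ran from -0.68 for the D-type cyclin CCND3 to 1.48 for the inhibitor CDKN2D. CDKN2D measured 0.14 in clone 3, -2.09 in clone 1 and -3.56 to -3.25 in the normal animals. The inhibitor CDKN1A, named after its values were seen, was highest in clone 3 at 5.66, against 3.04, 2.87 and 1.89 in clones 1, 2 and 4 and 3.35 to 4.26 in normal animals. Of 11 measured RB, E2F and MuvB complex genes, 6 were positive and 5 negative, with a median of 0.00 that was -0.06 without clone 1 and -0.04 without clone 3. The highest was MYBL2, which activates mitotic genes, at 2.13, and it measured 2.98, 0.12, -0.29 and 1.02 in the clones against -1.89 to -0.52 in the normal animals. The lowest was the RB relative RBL2 at -0.71, with every clone below every normal animal.

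Subunits of the anaphase-promoting complex and of SCF ligases, 14 of 18 measured, had 7 positive and 7 negative differences, from -0.28 for CDC26 to 0.86 for FBXO5, an inhibitor of the anaphase-promoting complex, and 13 were positive without clone 3. The 5 measured cohesin genes of 11 had differences from 0.07 for SMC1A to 1.92 for SGO1, the protector of centromeric cohesion. Of 9 measured p53 targets 3 were positive and 6 negative, with FAS at -1.29 and the stress gene SESN2 at 1.29. Centring on the spike-in controls moved the median of all probes by -0.68, to -0.70, and turned the medians of the wider spindle list to -0.17, of replication genes to -0.36, of G1 genes to -0.38 and of cohesin genes to -0.27. The median of the 43 mitosis and spindle genes was then 1.03 and 39 were positive, against 7.14% of all genes.

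Markers of several other cell types also differed between animals, and clone 1 stood at one end for some of them. Erythroid markers, 8 of 10 measured, had a median of 2.20 above the normal mean in clone 1, between -0.33 and 0.16 in the other clones and between -0.61 and 0.59 in normal animals, and the log2 of their summed level ran from 4.77 to 8.22 in clones and from 4.31 to 6.39 in normal animals. B and plasma cell markers, 4 of 7 measured, had a median of 2.88 in clone 1 and at most 1.01 in any other animal, with summed levels from -0.14 to 3.08 in clones and from 0.02 to 0.86 in normal animals. Only 2 of these 4 genes, and 6 of the 8 erythroid genes, were well above background on all 8 arrays. With normexp and 75th percentile centring the median group difference turned from 0.19 to -0.24 for B and plasma cell markers. For erythroid markers it turned from 0.35 to -0.11. Fibroblast markers, 9 of 9 measured, were above the normal mean in all 4 clones by 0.47, 1.21, 0.41 and 0.78 and in normal animal 3 by 0.32, with summed levels from 7.12 to 7.91 and from 6.69 to 7.16; the median difference of this list, 0.55, was -0.12 with spike-in centring. Ciliated cell markers, 7 of 8 measured, stood at -2.06 in clone 1, -1.50 in clone 3 and -0.78 in normal animal 3, with summed levels from -1.04 to 0.84 and from 0.43 to 1.55. Endothelial markers, 7 of 8 measured, stood at -1.33 in clone 1 and 1.08 in clone 3, with summed levels from 5.41 to 7.87 and from 6.60 to 6.96. Macrophage markers, 5 of 8 measured, were lowest in clones 2 and 4 at -1.62 and -1.85, with summed levels from 5.82 to 7.75 and from 7.43 to 8.03. The part of these cells in the level of mitosis and spindle genes was not tested.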

How the data were processed

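Each of 8 lung RNA samples, 1 per calf, was hybridised to its own bovine Agilent array with 1 dye. Per the file headers, the deposited intensity values were made with Agilent Feature Extraction 10.7.3.1, which subtracts background. Their 75th percentile (log2) ran from 10.1 to 10.5 in clones and from 10.6 to 10.9 in normal animals. The value subtracted in centring was thus lower in every clone, and group and slide cannot be told apart in it. The authors' deposited log2 value table, whose columns share a 75th percentile of 10.54 and medians from 7.8887 to 7.8898 and correlate at 0.999477 or more with the log2 intensity of their array, was an alternative only. Its between-array method is not stated in what was read here.

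Control spots and 2 to 21 outlier spots per array were left out, and no spot was saturated. From the log2 processed intensity of an array its own 75th percentile was subtracted. A probe was kept when well above background on at least 4 of 8 arrays (35635 of 43653). Symbols came from RefSeq accessions without versions (23492 probes), and the brightest kept probe stood for a gene. Between 78.8% and 83.5% of spots per array were well above background. The number of arrays limits the precision.

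The test between clones and normal animals was limma's (version 3.58.1, R 4.3.3; lmFit, eBayes, 2-sided), adjusted over all kept probes. The fit was also run on simulated data that gave both groups the same SD. In the real data clones varied more, with a median SD over all genes of 0.53 against 0.16. That run therefore cannot speak for p-values or intervals under unequal spread. Intervals are 95%. Animals were not treated as pairs by replicate number. Deviations of same-numbered animals correlated at 0.09, 0.10, -0.20 and -0.10, and those of differently numbered animals at -0.18 to 0.17. Deviations from a mean of 4 animals depend on each other, so this check cannot exclude pairs. Members and lists were chosen with earlier results of these data known. Levels in every animal are given for CCNB1, UBE2C, BIRC5, PLK1, the 6 genes with the smallest p, the 3 with the lowest difference, and (FOXM1 having no matched probe) the pairs of cyclins B, Aurora kinases and CKS genes. From each wider list the highest and lowest gene are named. The planned normexp correction used the median spot signal, the mean signal being not used here. Sequence motifs were not analysed here.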

Additional observations from a re-analysis of the deposited data

Results flagged for a closer look

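In 88 groups of 4 animals, 1 animal stood far from the other 3 in 3 cases, judged by its gap to the nearest animal over the range of the group (critical value 0.829). Chance flags about 1 in 20 groups. For BUB3, clone 1 at 3.18 was above the next clone at 2.24 (gap over range 0.836). For MELK, a kinase gene of dividing cells, normal animal 3 at -3.01 was above the next normal animal at -4.04 (0.845). For KIF2C, normal animal 4 at -1.25 was below the next at -0.92 (0.830).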

How the results depend on the processing

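The median difference of the 43 genes stayed positive under all 20 alternatives, from 0.74 with normexp and 75th percentile centring to 2.24 without clone 3, and 39 to 42 of the measured genes were positive. The count of genes that passed was 0 except with spike-in centring (2, of which 1 was higher), array weights (35) and 1 animal left out (0 to 2). Every clone exceeded every normal animal in 1 gene with spike-in centring and in 5 with normexp and 75th percentile centring. The shares over all genes were 0.223% and 3.95%. With 1 animal left out the count ran from 8 to 40, and the share over all genes from 5.53% to 13.4%. With the mean of all kept probes of a gene in place of the brightest, the count was 6, without a share over all genes to set beside it. Changed probes numbered 63 over the array, 10352 with spike-in centring, 25 with normexp then quantile normalization, 0 with normexp and 75th percentile centring, 145 with trend and robust settings, 11449 with array weights and 17 to 2566 with 1 animal left out. Asking for signal above background in every animal gave 17. With the replicate number as a block they numbered 13, and 0 genes of the list passed. Normexp with 75th percentile centring moved the median of all probes to -0.32. Of 299 values of single genes under alternatives, 275 kept sign and side of the threshold, 16 newly passed and 8 turned sign. Some alternatives left the difference of every measured gene unchanged. These were no filter, the filter on all 8 arrays, trend and robust settings, and the replicate block. Kept signs under them carry no information, and only the adjusted p could move. CKS1B turned to -0.29 with spike-in centring, and it ran from -0.18 without clone 1 to 0.87 without clone 3. BUB3 turned to 0.0158 with median centring and to 0.11 with normexp and 75th percentile centring, and it ran from -0.28 to 0.0983 with 1 animal left out. The cause was not tested. Slide could not be a block, since each slide held 1 group. The filter on all 8 arrays left 40 genes.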
